A study of Rattus norvegicus with 5 samples.

Results

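Hcn4 (ENSRNOG00000009450) and Hcn2 (ENSRNOG00000008831), the genes of 2 pacemaker channels, were chosen by these identifiers in all 5 expression tables of the series. They are 2 of 15243 features in each day 3 table and 2 of 16900 features in each day 14 table, and 2 of the 15077 features that all tables list. The files do not pair identifiers with gene names, so the names of the 2 genes come from the definition of the set. The cells were cultured ventricular cells of wild-type Sprague Dawley rats at postnatal day 2, a mixed population of myocytes and non-myocytes according to the labels. Monolayers were digested to single cells with trypsin. The promoter of the transgenes and the virus dose are not given in the sources used here. Each of the 5 groups was 1 droplet-based 3' single-cell library. Adeno-GFP at day 3 and Adeno-GFP at day 14 received an adenovirus with a green fluorescent protein and served as controls. Adeno-TBX18 at day 3 and at day 14 received an adenovirus with human TBX18, a T-box transcription factor. The remaining library had Adeno-TBX18 and 0.2 µM A83-01, which blocks the kinase of TGF-beta type I receptors, and its title places it at day 14. Its treatment label gives 3 days of A83-01, so the length of exposure is not settled. All groups therefore carried an adenovirus, and no uninfected culture was used here. The number of animals behind a library is not given in the sources used here.

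HCN channels open when the membrane becomes negative and carry the inward "funny" current that moves a pacemaker cell back toward its firing threshold. Binding of cyclic AMP shifts their opening, which is one way in which adrenergic and vagal signals change heart rate. Hcn4 is the main isoform of the sinoatrial node, and it is present in the early heart tube and falls in the working ventricle as the heart matures. Hcn2 is expressed in the node and in working atrial and ventricular muscle. TBX18 acts in formation of the sinoatrial node head, and its delivery to ventricular myocytes is studied as a way to make pacemaker-like cells.

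The 250 bases before the annotated start of Hcn2 are shown because TBX18 is a T-box factor and Hcn2 levels are compared between TBX18 and GFP cultures. The sequence is from RefSeq on build GRCr8, chr7:10639458-10639707, minus strand, 5' to 3', with matches of the GC box GGGCGG on either strand in capitals.
Hcn2: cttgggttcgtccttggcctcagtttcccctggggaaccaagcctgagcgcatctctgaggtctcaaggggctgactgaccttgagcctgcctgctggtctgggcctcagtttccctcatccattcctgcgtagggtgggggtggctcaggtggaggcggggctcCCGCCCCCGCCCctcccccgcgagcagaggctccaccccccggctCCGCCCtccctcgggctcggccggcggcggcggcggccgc
The window held 3 GC boxes, and 30.5% of 33469 rat windows of the same length held at least 1. The T-box core AGGTGT had 0 matches on both strands, against 11.6% of all windows with a match. The longer T-box form AGGTGTGA, which contains the core, also had 0 matches, against 0.959% of windows. CCAAT and TATAAA had 0 matches, and 34% and 12.9% of windows held them. A match, or the lack of one, describes the letters of this window and no binding. Hcn4 had no entry in the promoter table.

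The libraries held from 6424 to 8859 barcodes with medians of 15610 to 28566 UMIs, and each UMI stands for 1 RNA molecule counted once. Barcodes with at least 500 genes were kept, and the highest-scoring 6% of each library in a doublet score were left out, which left 6048 to 7893 cells. Cells were clustered without the virus features, Hcn4 and Hcn2, and the 28 clusters fell into 2 compartments, apart from a cluster of few cells. Marker genes could not be read without names, so the label "myocyte" was not checked. Compartment 1, in which EGFP was found in more of the GFP day 3 cells, stands here in place of the myocytes. It held 4616, 3254, 2005, 1259 and 2449 cells in GFP day 3, TBX18 day 3, GFP day 14, TBX18 day 14 and TBX18 with A83-01, or 60.4%, 53.35%, 33.15%, 15.95% and 34.18% of the kept cells. The virus features followed the labels: the GFP libraries held 0 UMIs of ZsGFP or hTBX18, and EGFP had at most 1 UMI in each of the 3 TBX18 libraries. Pairs of libraries shared from 7 to 20 barcodes, at most 0.280% of the smaller library. Day 3 and day 14 tables differ in unit, in feature list and in the authors' cell filter, so each value set across days differs in these as well as in time. With 1 library per group there is no replicate error and no test, and no p-value is given. All intervals are 95% intervals that cover counting error only.

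Hcn4 was highest in TBX18 day 14 and lowest in GFP day 14 among the compartment 1 cells. Levels are in CPM, the UMIs of a gene scaled to the summed UMIs of the same cells. Hcn4 stood at 12.4 CPM in GFP day 3 (interval 11.8 to 13.1, 1286 UMIs) and at 11.7 CPM in TBX18 day 3 (11.0 to 12.45, 1082 UMIs). It stood at 5.69 CPM in GFP day 14 (4.89 to 6.58, 181 UMIs). It reached 29.4 CPM in TBX18 day 14 (27.1 to 31.9, 608 UMIs) and 12.85 CPM in TBX18 with A83-01 (11.9 to 13.9, 621 UMIs). The order from high to low was TBX18 day 14, TBX18 with A83-01, GFP day 3, TBX18 day 3 and GFP day 14. The 3 libraries in the middle had overlapping intervals, and TBX18 day 14 and GFP day 14 overlapped with none.

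The level of Hcn2 ran in another order. It was 4.885 CPM in GFP day 3 (4.47 to 5.33, 505 UMIs) and 1.92 CPM in TBX18 day 3 (1.65 to 2.22, 177 UMIs). It was 8.23 CPM in GFP day 14 (7.26 to 9.29, 262 UMIs), 5.325 CPM in TBX18 day 14 (4.38 to 6.42, 110 UMIs) and 4.59 CPM in TBX18 with A83-01 (4.01 to 5.24, 222 UMIs). Hcn2 was thus highest in GFP day 14, the library in which Hcn4 was lowest, and lowest in TBX18 day 3. The intervals of TBX18 day 14, GFP day 3 and TBX18 with A83-01 overlapped.

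Shares of cells with a nonzero value gave the same ends of the order. With all UMIs counted, Hcn4 was found in 18.3%, 20.04%, 6.185%, 25.9% and 16.2% of compartment 1 cells in GFP day 3, TBX18 day 3, GFP day 14, TBX18 day 14 and TBX18 with A83-01. Median depth there ran from 15104 to 29345.5 UMIs per cell, so shares were also taken after each cell was thinned to 5000 UMIs. That left out 128, 90, 1, 2 and 0 shallower cells. The thinned share for Hcn4 was 5.86% (5.19 to 6.59) in GFP day 3 and 5.63% (4.85 to 6.49) in TBX18 day 3. It was 2.20% (1.60 to 2.94) in GFP day 14, 11.7% (9.97 to 13.6) in TBX18 day 14 and 5.10% (4.27 to 6.05) in TBX18 with A83-01. For Hcn2 the unthinned shares in the same order were 9.92%, 5.29%, 12.02%, 7.86% and 8.575%, and the thinned shares were 2.38%, 1.20%, 4.49%, 2.15% and 2.53%. Both measures placed Hcn2 highest in GFP day 14 and lowest in TBX18 day 3.

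Compartment 2, the other main part of each culture, carried Hcn2 and almost no Hcn4. It held 2838 to 6628 cells per library at median depths of 15309 to 27648 UMIs. Hcn4 had 8, 7, 8, 29 and 7 UMIs there, which is 0.105, 0.0842, 0.125, 0.272 and 0.0876 CPM, and thinned shares were from 0.0212% to 0.181% of cells. As a percentage of the compartment 1 level these were 0.845, 0.718, 2.20, 0.925 and 0.682. For comparison, 100 genes chosen in GFP day 3 as the most particular to compartment 1 stood in compartment 2 at a summed 0.920% to 1.35% of their compartment 1 level; the value of 1.25% in GFP day 3 is set by that choice. In each library the interval of the Hcn4 percentage included the value of these genes, so Hcn4 in compartment 2 is not read as expression. Whether free RNA or remaining doublets gave these UMIs was not tested. Hcn2 had 79, 41, 153, 206 and 150 UMIs in compartment 2, or 1.04, 0.493, 2.39, 1.93 and 1.88 CPM. That was 21.2%, 25.7%, 29.0%, 36.3% and 40.9% of its compartment 1 level, with a lowest lower bound of 16.5% in GFP day 3, which is above the percentage of those 100 genes. The transgene of a library's own virus stood in compartment 2 at 3.62% to 13.3% of its compartment 1 level.

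**Figure D1:**
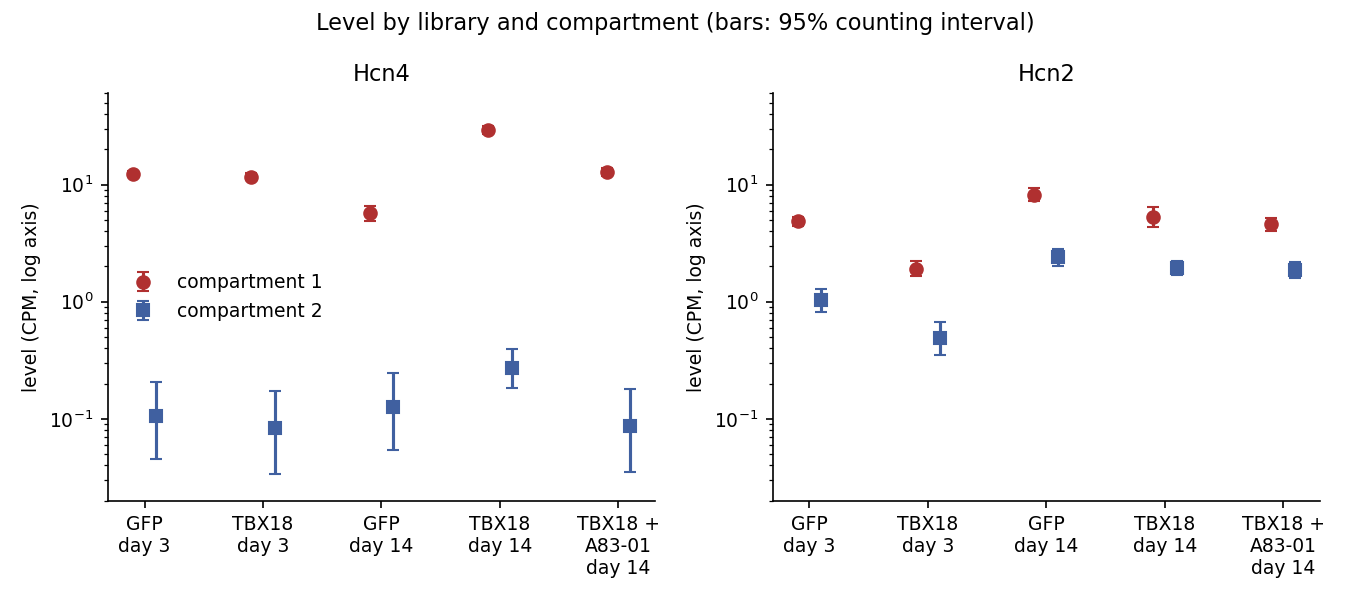
Level of Hcn4 (left) and Hcn2 (right) in CPM on a log axis in each of the 5 libraries, for both compartments, with 95% Poisson intervals from UMI counts. Hcn4 in compartment 1 ranges from 5.69 to 29.4 CPM and in compartment 2 stays at or below 0.272 CPM, while Hcn2 in compartment 2 lies between 0.493 and 2.39 CPM.

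The balance between the genes moved with the library. Hcn4 held 71.8% of the UMIs of both genes in compartment 1 of GFP day 3, 85.9% in TBX18 day 3, 40.9% in GFP day 14, 84.7% in TBX18 day 14 and 73.7% in TBX18 with A83-01. GFP day 14 was the 1 library in which Hcn2 had more UMIs than Hcn4. These shares are of UMIs at the 3' end, with no scaling by gene length, and serve to compare libraries and not the genes.

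At day 3, TBX18 cultures had about the Hcn4 level of GFP cultures and a lower Hcn2 level in compartment 1. The log2 ratio of TBX18 to GFP was -0.09 for Hcn4 (-0.20 to 0.03), beside a median of -0.05 over all 7873 genes that averaged 5 CPM or more. For Hcn2 the log2 ratio was -1.35 (-1.60 to -1.10), which is 2.55-fold lower with TBX18. Hcn2 had a mean under 5 CPM here and was set among 10816 genes with at least 1 CPM, with 0.5 CPM added to each level. On that scale its ratio was -1.16, and 3.125% of genes were as low or lower. Of these genes, 4.31% were lower by 2-fold or more. In compartment 2, Hcn2 also stood lower with TBX18, by a log2 ratio of -1.07.

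At day 14, Hcn4 was 5.18-fold higher with TBX18 than with GFP in compartment 1. The log2 ratio was 2.37 (2.13 to 2.62), beside a median of 0.21 and an SD of 0.46 over 8796 genes with at least 5 CPM. In this comparison 3.93% of genes were higher by 2-fold or more, and 0.443% were as high as Hcn4 or higher. Hcn2 stood lower with TBX18, at a log2 ratio of -0.63 (-0.96 to -0.30), which is 1.545-fold, and 2.535% of genes were as low or lower. The 2 channel genes therefore lay at opposite ends of the gene-wide distribution. In compartment 2 the Hcn2 ratio was -0.31 with an interval that included 0.

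The A83-01 comparison uses the TBX18 day 14 library as its reference, which the comparison above also uses. Hcn4 was 2.29-fold lower in TBX18 with A83-01 than in TBX18 day 14, with a log2 ratio of -1.20 (-1.36 to -1.03). The median of 8537 genes with at least 5 CPM was itself -0.43, 13.1% of genes were lower by 2-fold or more, and 9.01% were as low as Hcn4 or lower. With scaling by the median of gene ratios in place of total UMIs the Hcn4 log2 ratio became -0.82, under 2-fold. Hcn2 had a log2 ratio of -0.21 (-0.55 to 0.13) by total UMIs and 0.17 by median-of-ratios scaling, so its direction depends on the scaling and its interval includes 0 in both. The Hcn4 level with A83-01, 12.85 CPM, still lay above the 5.69 CPM of GFP day 14.

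Over culture time, Hcn4 was lower at day 14 than at day 3 with GFP and higher at day 14 with TBX18. The log2 ratio of day 14 to day 3 was -1.13 with GFP (-1.36 to -0.90), a 2.19-fold lower level, where 6.16% of 8295 genes were lower by 2-fold or more and 5.38% were as low or lower. It was 1.33 with TBX18 (1.18 to 1.47), a 2.51-fold higher level, where 19.0% of 8598 genes were higher by 2-fold or more and 11.5% were as high or higher. The median of all genes was 0.18 with GFP and 0.42 with TBX18. Hcn2 was higher at day 14 with both viruses, by a log2 ratio of 0.75 with GFP (0.53 to 0.97) and of 1.47 with TBX18 (1.12 to 1.82). Among the 11557 genes with at least 1 CPM in the TBX18 comparison, 21.9% were higher by 2-fold or more, and 14.0% were as high as Hcn2 or higher. A 2-fold higher level was thus frequent over time in TBX18 cultures, and neither channel stood apart from the other genes there. By median-of-ratios scaling the log2 ratios with TBX18 were 0.96 for Hcn4, under 2-fold, and 1.11 for Hcn2. Hcn2 in compartment 2 had log2 ratios of 1.20 with GFP and 1.97 with TBX18.

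**Figure D2:**
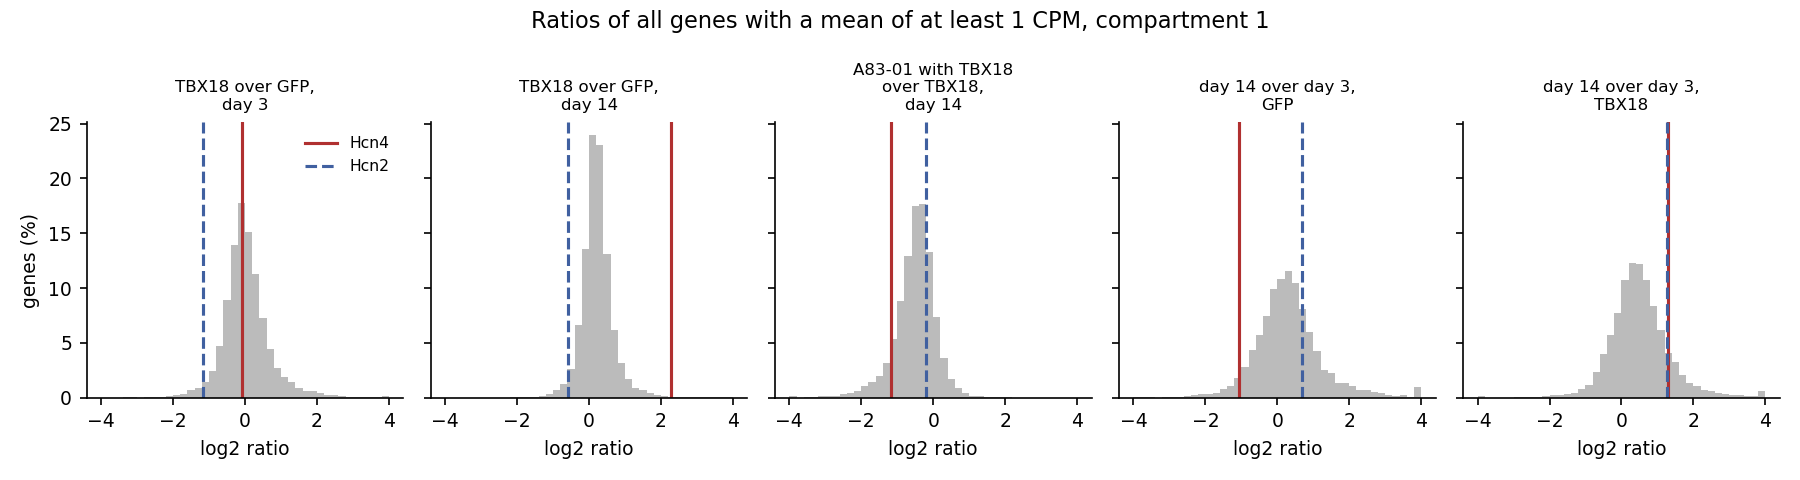
Share of genes (y axis, percent) by log2 ratio (x axis, 0.5 CPM added) in compartment 1 for 5 comparisons, for genes averaging 1 CPM or more, with ratios beyond 4 in either direction drawn in the end bins. The solid line marks Hcn4 and the dashed line Hcn2; Hcn4 is far to the right in TBX18 over GFP at day 14, and both lines fall together in day 14 over day 3 with TBX18.

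Clusters within compartment 1 ranged in Hcn4 from 1.71 to 34.3 CPM, apart from a shallow cluster with 0 UMIs, and libraries filled different clusters. Hcn4 and Hcn2 took no part in the clustering. In GFP day 14, cluster 10 held 65.5% of the compartment (1314 cells) with Hcn4 at 1.95 CPM (1.38 to 2.67) and Hcn2 at 10.5 CPM (9.11 to 12.03). Cluster 9 held 19% there (381 cells) with Hcn4 at 19.3 CPM (15.9 to 23.3) and Hcn2 at 4.01 CPM (2.54 to 6.01). In TBX18 day 14, cluster 9 held 80.4% (1012 cells) with Hcn4 at 34.3 CPM (31.5 to 37.3) and Hcn2 at 5.33 CPM (4.26 to 6.59). The cluster with low Hcn4 and high Hcn2 thus made up most of compartment 1 with GFP and did not reach 50 cells with TBX18.

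Within clusters that both day 14 libraries filled, Hcn4 was still higher with TBX18, by less than over the whole compartment. The log2 ratio was 0.83 in cluster 9 (0.53 to 1.13), 1.57 in cluster 19 (0.86 to 2.31) and 1.22 in cluster 14 (-0.43 to 3.27, from 15 and 4 UMIs). Summed over these shared clusters it was 1.35, against 2.37 for all cells. This sum does not match the clusters' cell numbers: cluster 9 held 1012 cells with TBX18 and 381 with GFP, and cluster 19 held 157 and 251. It therefore still contains the mix of clusters and is not a ratio within clusters. The same holds for the Hcn2 sum below. For Hcn2 the lower level with TBX18 was not seen within shared clusters: the log2 ratio was 0.41 in cluster 9 (-0.27 to 1.14) and -0.18 in cluster 19 (-1.21 to 0.78), and 0.13 over the shared clusters. A cluster mostly of 1 library may be that library and not a cell type, and with 1 library per group these cannot be told apart.

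At day 3 the libraries also occupied different main clusters, with close Hcn4 levels. Cluster 2 of GFP day 3 (3564 cells) had 12.6 CPM and cluster 6 of TBX18 day 3 (2220 cells) had 13.9 CPM. Cluster 12 of GFP day 3 had 14.45 CPM and cluster 14 of TBX18 day 3 had 12.1 CPM. Cluster 18 of TBX18 day 3 stood low, at 2.21 CPM (1.41 to 3.28, 420 cells), and had the highest transgene level of that library's compartment 1 clusters, 447.9 CPM of hTBX18 and ZsGFP, with 87.4% of its cells carrying a transgene UMI. Cluster 20, near the border of the compartments, was low in both day 3 libraries, at 1.71 and 3.47 CPM. Shallow cluster 23 (medians of 3233 and 4449.5 UMIs) had 0 Hcn4 UMIs in both, with upper interval bounds of 8.95 and 8.84 CPM. In TBX18 with A83-01, cluster 7 (2035 cells) had 12.85 CPM and cluster 21 had 8.24 CPM. For Hcn2 at day 3, cluster 2 had 5.46 CPM and cluster 6 had 2.17 CPM, so the lower Hcn2 with TBX18 was present between the main clusters.

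**Figure D3:**
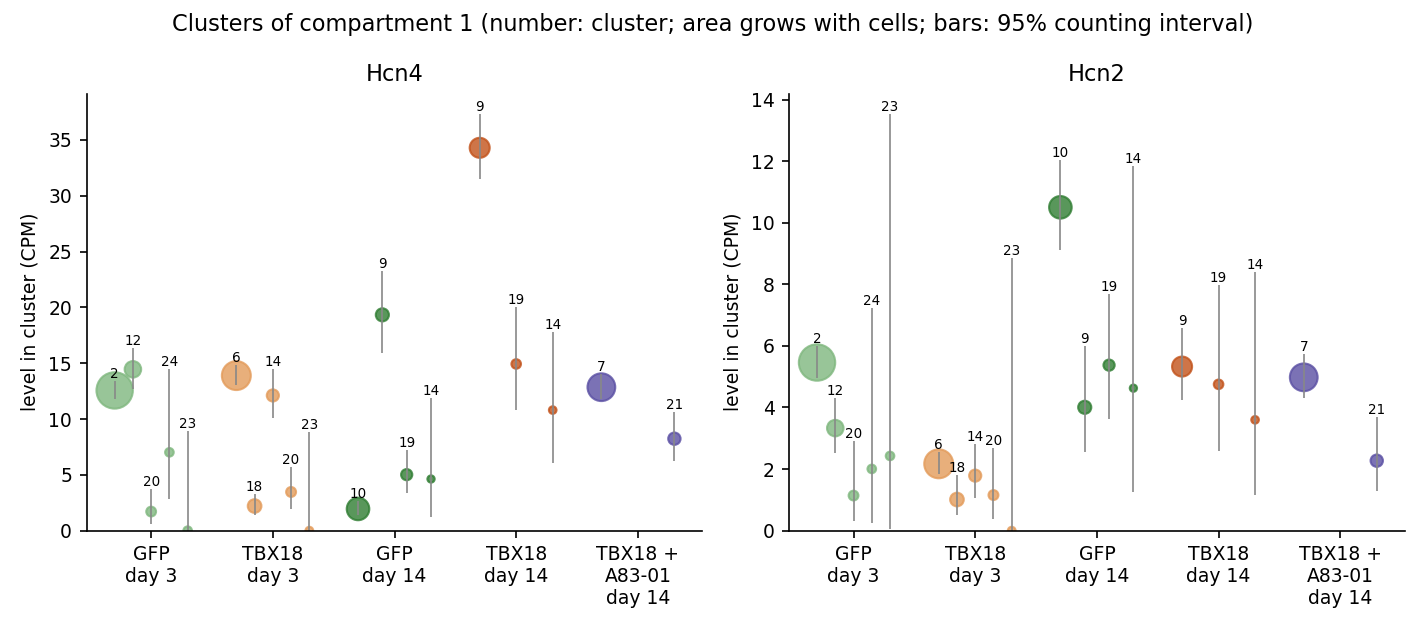
Level in CPM (y axis) of Hcn4 (left) and Hcn2 (right) in each compartment 1 cluster with at least 50 cells, by library; the number is the cluster, point area grows with its cells, and lines are 95% Poisson intervals. Cluster 10, most of GFP day 14, has the lowest Hcn4 level of that library (1.95 CPM) and its highest Hcn2 level (10.5 CPM).

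Cells of compartment 1 were next divided by whether they held a UMI of their own virus, which is EGFP in GFP libraries and hTBX18 or ZsGFP in TBX18 libraries. A cell with no such UMI may still carry virus. Cells with a transgene UMI numbered 2437 of 4616 in GFP day 3, 1405 of 3254 in TBX18 day 3, 925 of 2005 in GFP day 14, 196 of 1259 in TBX18 day 14 and 333 of 2449 in TBX18 with A83-01. They were deeper in every library, for example by medians of 24705 against 19618 UMIs in GFP day 3 and 17943 against 15246.1 UMIs in TBX18 day 14.

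Hcn4 was lower in transgene-positive cells in TBX18 day 3 and higher in the other 4 libraries. In TBX18 day 3 it was 9.64 CPM in cells with and 13.55 CPM in cells without a transgene UMI, a log2 ratio of -0.49 (-0.67 to -0.31). In GFP day 3 it was 13.9 against 10.3 CPM, a log2 ratio of 0.43 (0.26 to 0.60). In GFP day 14 it was 7.03 against 4.36 CPM, a log2 ratio of 0.69 (0.24 to 1.14). In TBX18 day 14 it was 39.5 against 27.3 CPM, a log2 ratio of 0.54 (0.25 to 0.81). In TBX18 with A83-01 it was 16.3 against 12.2 CPM, a log2 ratio of 0.41 (0.11 to 0.71). None of these 5 intervals included 0, and no difference reached 2-fold. The intervals cover counting error only, while the variance of Hcn4 UMIs over cells was 2.01 to 2.68 times their mean. They are therefore too narrow for a difference between sets of cells. Whether each would still exclude 0 with this spread counted was not tested. For GFP day 14 the interval did include 0 without the clusters near the border of the compartments (0.42, -0.06 to 0.90) and when at least 2 transgene UMIs were asked for (0.44, -0.07 to 0.94). In TBX18 day 14 the latter setting gave -0.24 (-0.81 to 0.28). Thinned to 5000 UMIs, the shares of cells with Hcn4 were 5.34% with and 5.85% without a transgene UMI in TBX18 day 3, a gap within their intervals (4.21 to 6.66 and 4.80 to 7.04). They were 16.8% and 10.7% in TBX18 day 14, with intervals of 11.9 to 22.8 and 8.94 to 12.8.

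Against all genes, the Hcn4 ratios stood toward the ends of the distribution in GFP and TBX18 libraries. With at least 5 CPM, 1.85% of genes were as high or higher in GFP day 3 and 0.141% in GFP day 14. The GFP day 14 rank rests on 111 against 70 Hcn4 UMIs, and it was 0.637% with at least 1 CPM. The SD over the genes with at least 5 CPM was 0.17 in GFP day 14, and the Hcn4 interval there, 0.24 to 1.14, was wider. Counting error alone can thus move a gene with few UMIs toward an end, and these ranks do not allow for it. Without the clusters near the border of the compartments, the GFP day 14 ratio was 0.42 (-0.06 to 0.90). In TBX18 day 14 and TBX18 with A83-01 the percentages were 3.77 and 8.955, and in TBX18 day 3 4.33% of genes were as low or lower.

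The number of transgene UMIs gave a graded pattern for Hcn4 in day 3 libraries. In TBX18 day 3 the level was 13.55 CPM with 0, 12.8 with 1, 9.70 with 2 and 6.28 CPM with 3 or more transgene UMIs (5.15 to 7.58, 566 cells). These steps include cluster 18, whose 420 cells had Hcn4 at 2.21 CPM and carried a transgene UMI in 87.4% of cases. The steps were not taken without it or within clusters, so a grade apart from this cluster was not tested. Cells with UMIs of both hTBX18 and ZsGFP had 6.67 CPM (585 cells), those with hTBX18 alone 11.5 CPM and those with ZsGFP alone 12.1 CPM. In GFP day 3 the levels were 10.3, 12.95, 14.0 and 14.5 CPM over the same steps, so the 2 viruses ran in opposite directions. At day 14 no such grade was seen with TBX18: levels were 27.3, 49.8, 23.7 and 22.5 CPM, the last steps being 36 and 35 cells. GFP day 14 gave 4.36, 10.1, 7.53 and 5.31 CPM, and TBX18 with A83-01 gave 12.2, 15.6, 27.3 and 8.99 CPM. The highest transgene step was at or below the level of cells with no transgene UMI in TBX18 day 14 and TBX18 with A83-01, with overlapping intervals.

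**Figure D4:**
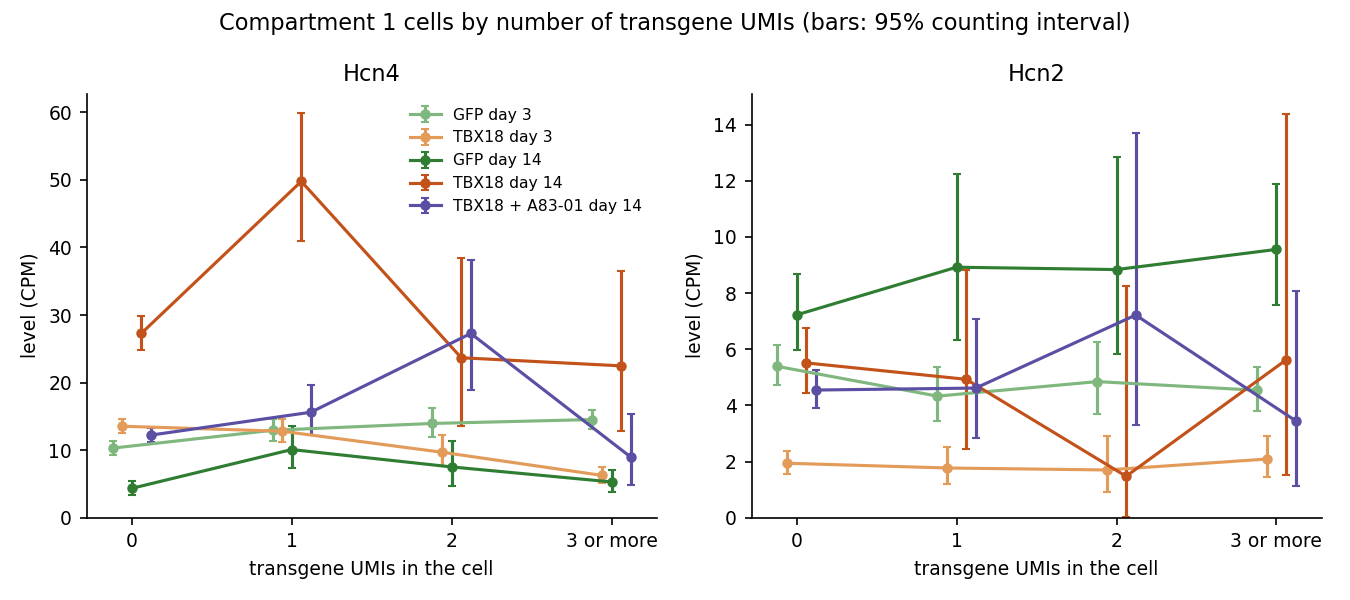
Level in CPM (y axis) of Hcn4 (left) and Hcn2 (right) in compartment 1 cells with 0, 1, 2 and 3 or more transgene UMIs (x axis), 1 line per library, with 95% Poisson intervals. Hcn4 falls from 13.55 to 6.28 CPM in TBX18 day 3 and goes from 10.3 to 14.5 CPM in GFP day 3.

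Within single clusters the ratios were closer to 0 in TBX18 day 3 and varied in the other libraries. In TBX18 day 3 the Hcn4 log2 ratio of cells with to cells without a transgene UMI was -0.32 in cluster 6 (-0.52 to -0.13), -0.11 in cluster 14 and -0.10 in cluster 18, the last 2 with intervals that include 0. Without cluster 18, whose cells hold much transgene and little Hcn4, the ratio for TBX18 day 3 was -0.23 in place of -0.49. In GFP day 3 it was 0.44 in cluster 2 (0.25 to 0.63) and -0.13 in cluster 12 (interval including 0). In TBX18 day 14 it was 0.44 in cluster 9 (0.15 to 0.72), and in TBX18 with A83-01 it was 0.51 in cluster 7 (0.17 to 0.83). In GFP day 14 it was 0.66 in cluster 9 (0.09 to 1.24), -0.52 in cluster 10 (-1.56 to 0.48) and 3.37 in cluster 19 (1.37 to 6.49), the last from 26 against 2 UMIs.

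For Hcn2, the intervals of the ratio of cells with to cells without a transgene UMI included 0 in all 5 libraries. Its log2 ratios were -0.25 (-0.51 to 0.01) in GFP day 3, -0.04 (-0.48 to 0.40) in TBX18 day 3 and 0.36 (-0.01 to 0.72) in GFP day 14. In 5 other settings, among them both other clustering resolutions, the GFP day 3 interval lay below 0, with ratios from -0.27 to -0.295. Without the border clusters the GFP day 14 ratio was 0.42 (0.04 to 0.81). The ratios were -0.32 (-1.18 to 0.46) in TBX18 day 14 and 0.09 (-0.48 to 0.62) in TBX18 with A83-01. The lower Hcn2 of TBX18 day 3 was therefore present in both kinds of cell: the log2 ratio of TBX18 to GFP was -1.26 among cells with and -1.47 among cells without a transgene UMI. The higher Hcn4 of TBX18 day 14 was likewise present in both, with log2 ratios to GFP of 2.49 and 2.65. At day 3, by contrast, the Hcn4 ratio was -0.53 among cells with and 0.39 among cells without a transgene UMI, and the 2 gave the ratio near 0 over all cells.

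Hcn4 UMIs were spread more unevenly over compartment 1 cells than counting at 1 common level gives, and Hcn2 UMIs less so. Single cells held up to 11, 15, 9, 11 and 19 Hcn4 UMIs in GFP day 3, TBX18 day 3, GFP day 14, TBX18 day 14 and TBX18 with A83-01. Cells with 3 or more numbered 92, 88, 16, 59 and 45, or 1.99%, 2.704%, 0.798%, 4.69% and 1.84% of cells. If each cell had the same Hcn4 level at its own depth, Poisson counting would give 0.382%, 0.622%, 0.0150%, 1.65% and 0.270%. These cells held 28.6%, 36.2%, 32.6%, 43.4% and 32.85% of Hcn4 UMIs, so most Hcn4 UMIs lay in cells with fewer than 3. The variance of Hcn4 UMIs over their mean ran from 2.01 to 2.68 over libraries, against 1.01 to 1.06 under 1 level. The counting intervals given for Hcn4 levels and ratios are therefore too narrow for differences between sets of cells. For Hcn2 the ratio was 1.09, 1.00, 1.04, 1.13 and 1.02, against 1.01 in each library under 1 level. No cell had more than 3 Hcn2 UMIs, and 4, 0, 1, 1 and 0 cells had 3, where 1 level would give 1.26, 0.116, 0.877, 0.181 and 0.349 cells. Both genes differed between clusters, as their levels in clusters 10 and 9 of GFP day 14 show. The reference of 1 level takes no account of such differences. Cells with 3 or more Hcn4 UMIs were somewhat deeper, with medians of 27994.2 against 22195.5 UMIs in GFP day 3 and 19154 against 15679.7 UMIs in TBX18 day 14.

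**Figure D5:**
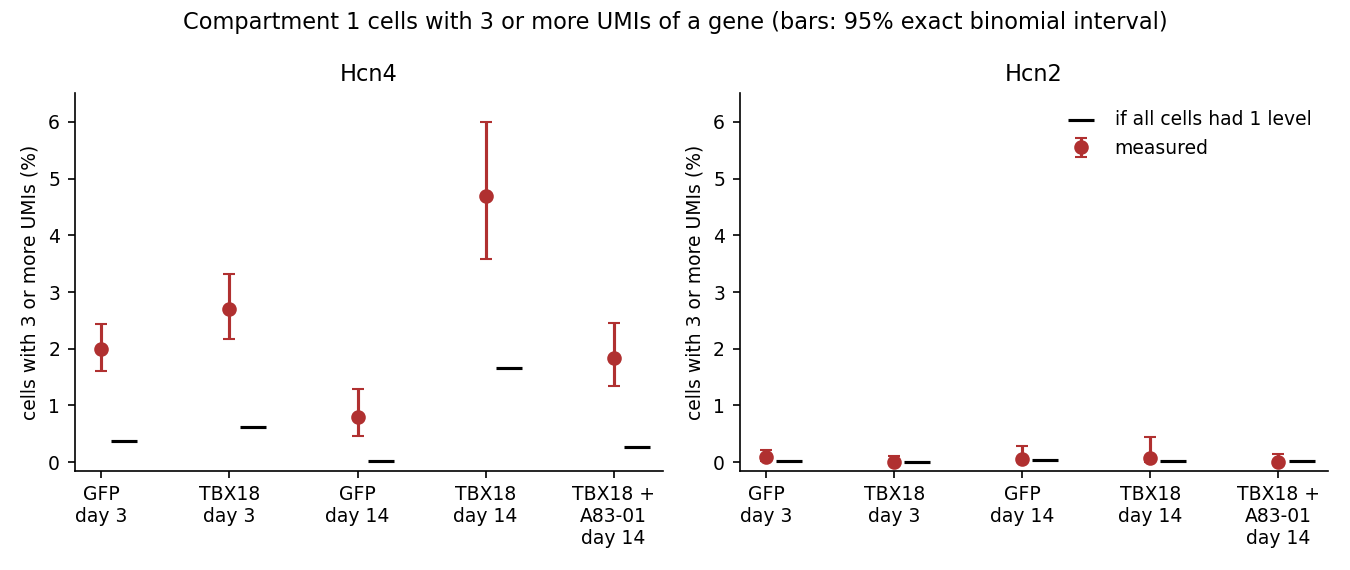
Percentage of compartment 1 cells (y axis) with 3 or more UMIs of Hcn4 (left) or Hcn2 (right) in each library, with 95% exact binomial intervals; dashes mark the share that 1 common level would give at each cell's depth. Hcn4 lies above its dash in all 5 libraries, at 0.798% to 4.69%, and Hcn2 stays at or below 0.0867%.

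Cells with an Hcn4 UMI left after thinning did not differ from the remaining cells in Hcn2 beyond counting error. The remaining cells included those whose Hcn4 UMIs were lost in thinning. In GFP day 3, for example, Hcn4 was found in 18.3% of cells before thinning and 5.86% after it. The split therefore does not separate cells with Hcn4 from cells without it, and a difference between those was not tested. Cells with an Hcn4 UMI after thinning numbered 263, 178, 44, 147 and 125. The log2 ratio of the Hcn2 level in them to that in the other cells was -0.55, -0.04, -0.42, 0.27 and 0.04, and all 5 intervals included 0. The widest of them, in GFP day 14, ran from -2.31 to 0.95, so a difference of several-fold would not be seen there.

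Genes with the most similar pattern can be given by identifier only. Over 20 profiles (5 libraries, both compartments, split by presence of a transgene UMI) and 5009 genes averaging 20 CPM or more, ENSRNOG00000019404 had the highest Pearson r with Hcn4, 0.973, and ENSRNOG00000000808 the highest with Hcn2, 0.9735. These values are descriptions, since profiles of 1 library share its RNA and depth and the compartments set most of the variation. Between compartment 1 cells with and without an Hcn4 UMI after thinning, 1 of 4533 genes was higher by a log2 ratio of at least 1 in all 5 libraries, and 0 were lower by as much. It was ENSRNOG00000009332, with log2 ratios of 1.29, 1.56, 2.53, 1.30 and 1.74. For Hcn2, 0 of 4451 genes passed in either direction.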

How the data were processed

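The 3' single-cell libraries came from a droplet kit, per the labels' protocols. The submitters' processing notes name STAR 2.7.8a, Partek and build Rnor_6.0, without role or order. Counting settings and the authors' cell filter are not given in the sources used here. The authors deposited day 3 tables as estimated counts of UMIs. Day 14 tables were deposited as log2 values, log2 of CPM plus 1 per cell, judged from the values. For day 14, each cell's most frequent value above 0 was taken as 1 UMI, after which 99.68% to 99.74% of values were whole within 0.05. All values of Hcn4 and Hcn2 were whole. In a test on simulated data, 100% of counts came back in 500 cells made from each day 3 library over 15077 features. Their values were first rounded to whole counts, so the test does not cover fractional values. It also does not cover the shallower day 14 cells. Simulated 2-fold changes in 200 genes came back with median log2 ratios of 0.98 and -0.98 for TBX18 over GFP at day 3, among 7876 genes.

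Hcn4 and Hcn2, the gene lists and the comparisons were chosen with earlier results of these data known. The reference table matched 0 of 17060 identifiers. The planned pathway lists and cell type markers were therefore not applied, and the fallback of 2 compartments by average linkage of cluster profiles was used. Clustering used scanpy 1.11.5 and leidenalg 0.10.2 with 2000 variable genes, 30 principal components, 20 neighbours and resolution 1. The automatic threshold of Scrublet marked from 0% to 2.77% of a library, too few in 4 of 5 libraries to have worked, and the highest 6% of scores were left out instead, 376 to 485 cells. Barcodes with under 500 genes numbered 731 and 292 at day 3 and 0 at day 14. A cluster of 19 cells in all stayed outside both compartments.

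Levels are summed UMIs over the total UMIs of the same cells, with exact Poisson intervals. Shares have Clopper-Pearson intervals, and ratios have exact conditional intervals, all at 95% and for counting error only. A floor of 3 counts corresponds to 0.0290 to 0.145 CPM in compartment 1. Ratios of all genes used a pseudocount of 0.5 CPM, a mean of at least 5 CPM, and a call at a log2 ratio of 1, that is 2-fold. The minimum of 1 CPM was added after seeing the data, because Hcn2 fell under 5 CPM in 3 of 5 comparisons. The fold changes of low genes on that scale are understated. Genes named as similar were those with the highest Pearson r over profiles of at least 50 cells. Also named were those with the largest consistent difference between cells with and without a UMI of the channel after thinning. Alternatives included another thinning depth, scaling, pseudocount, clustering resolution, doublet treatment and transgene cut-off.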

Additional observations from a re-analysis of the deposited data

Results flagged for a closer look

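The change of Hcn4 in compartment 1 from day 3 to day 14 had opposite signs with the 2 viruses: the log2 ratio was -1.13 with GFP and 1.33 with TBX18. With a single library per group, this difference between viruses was not tested.

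Hcn4 in cells with a transgene UMI, relative to cells without one, was lower in TBX18 day 3 (log2 ratio -0.49) and higher in the other 4 libraries. The ratios there were 0.43 in GFP day 3, 0.69 in GFP day 14, 0.54 in TBX18 day 14 and 0.41 in TBX18 with A83-01. The difference between libraries was not tested. Cells with a transgene UMI had the larger median depth in all 5 libraries.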

How the results depend on the processing

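Of 524 values recomputed under other settings for 70 results, 450 moved by less than their interval (percentages of genes, by under 1.5 times), 70 moved further, and 4 log2 ratios whose reported interval excludes 0 changed sign. A further 10 sign changes were of ratios whose reported interval includes 0. All 60 values under each of 4 settings (other clustering resolutions, border clusters left out, and day 3 cells held to the day 14 range of genes and UMIs) did not move beyond it. Where a sign or a side of 0 changed within the interval, the values were these. Hcn4 for TBX18 over GFP at day 3 was 0.01 with median-of-ratios scaling and -0.12 (-0.24 to -0.01) with doublets kept. Hcn2 for A83-01 was 0.13 among cells with a transgene UMI, and Hcn2 for TBX18 over GFP at day 14 was -0.39 (-0.80 to 0.02) among cells without one. The Hcn2 ratio of cells with to cells without in TBX18 day 3 was between 0.01 and 0.18 under 4 settings, and with A83-01 it was -0.01 with median-of-ratios scaling. No paired analysis was possible because each group has 1 library and the labels give no replicate numbers. No replicate could be left out for the same reason. Depth limits Hcn2 most, with 110 UMIs in TBX18 day 14. Except where stated, the cause of a change was not tested.

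Values below are in the order GFP day 3, TBX18 day 3, GFP day 14, TBX18 day 14, TBX18 with A83-01 where 5 are given. With doublets kept, Hcn4 was 26.6 CPM in TBX18 day 14 and 11.8 CPM in TBX18 with A83-01. With median-of-ratios scaling, Hcn4 was 12.7 CPM in TBX18 day 3, 24.7 in TBX18 day 14 and 14.2 in TBX18 with A83-01. The same scaling gave log2 ratios of -0.82 (Hcn4) and 0.17 (Hcn2) for A83-01, and of 0.96 (Hcn4) and 1.11 (Hcn2) for day 14 over day 3 with TBX18. Its percentages of genes past 2-fold were 2.45 higher and 1.4 lower for TBX18 over GFP at day 14, 1.65 higher and 5.79 lower for A83-01, and 10.2 higher and 5.55 lower for day 14 over day 3 with TBX18. A pseudocount of 5 CPM gave 3.07% higher and 2.54% lower for TBX18 over GFP at day 3, 2.1% and 0.557% at day 14, 6.88% lower for A83-01 and 12% higher for day 14 over day 3 with TBX18.

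Thinning to 10000 UMIs, which detects more cells by construction, gave Hcn4 shares of 10.0%, 9.28%, 4.56%, 18.3% and 9.625%, and Hcn2 shares of 4.77%, 2.05%, 7.78%, 4.46% and 4.39%. Among cells with a transgene UMI, Hcn4 shares were 11.4%, 7.985% and 5.38% in the first 3 libraries and 12.9% with A83-01, and without one 8.35%, 10.3%, 3.78%, 17.5% and 9.10%. The Hcn2 shares were 4.375%, 2.39%, 8.58% and, with A83-01, 6.135% with a transgene UMI, and 5.27%, 1.79%, 7.03%, 4.93% and 4.105% without.

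With at least 2 transgene UMIs asked for, the Hcn4 log2 ratio of cells with to cells without was -0.89 in TBX18 day 3 and -0.24 in TBX18 day 14, a change of sign, where the shares with a transgene were 9.86% for Hcn4 and 0% for Hcn2. With hTBX18 UMIs alone the ratio was -0.68 in TBX18 day 3. The settings that follow were chosen after seeing the data. Without cluster 18 that ratio was -0.23. Among cells with a transgene UMI, the Hcn4 log2 ratio was -0.53 for TBX18 over GFP at day 3 and 2.04 for day 14 over day 3 with TBX18, and the Hcn2 ratio was -1.06 for TBX18 over GFP at day 14 and 1.03 for day 14 over day 3 with GFP. Among cells without one, Hcn4 gave 0.39 at day 3, 2.65 at day 14 and 1.01 over time with TBX18, and Hcn2 gave 0.42 over time with GFP. In clusters with at least 50 cells in both libraries, Hcn4 gave 1.05 for TBX18 over GFP at day 3, 1.35 at day 14 and -0.17 over time with TBX18, and Hcn2 gave -0.28, 0.13 and 1.01. These clusters hold few cells at day 3 and over time, and sums over clusters do not match their cell numbers between libraries. In the largest cluster of a library, Hcn4 shares were 6.67% with and 7.165% without a transgene UMI in TBX18 day 3, 1.18% with one in GFP day 14 and 12.9% without one in TBX18 day 14, and the Hcn4 ratio of cells with to without was -0.52 in GFP day 14.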

Other observations

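Barcodes left out of the comparisons also carried the channels. Those left out for a high doublet score held 143, 100, 20, 63 and 51 Hcn4 UMIs in GFP day 3, TBX18 day 3, GFP day 14, TBX18 day 14 and TBX18 with A83-01. In GFP day 3, 731 barcodes with under 500 genes held 0 Hcn4 and 0 Hcn2 UMIs at a median of 6613 UMIs. The floor of 3 counts corresponds to 0.575 CPM in these barcodes, against 12.4 CPM of Hcn4 in compartment 1. In TBX18 day 3, 292 such barcodes held 2 Hcn4 and 0 Hcn2 UMIs at a median of 10122 UMIs. Over all barcodes as deposited, Hcn4 had from 209 to 1437 UMIs per library and Hcn2 from 238 to 633.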
